A study of Mus musculus with 10 samples.

Results

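The 2 arrays of hair follicle melanocytes (Mc) were compared with the 2 arrays of hair follicle matrix cells (Mx), which are 4 of the 10 arrays of the series and were chosen by their titles. All 22626 probe-sets outside the array controls entered the comparison, in both directions. Both populations came from backskin at postnatal day 4 (P4), when the follicles are building hair, of mice that carried 2 transgenes and had received no treatment. K14-H2BGFP places a histone fused to green fluorescent protein (GFP) under the promoter of K14, a keratin of basal epithelial cells, and Lef1-RFP places a red fluorescent protein (RFP) under a fragment of the human Lef1 promoter. Mx were sorted from dissociated follicles as GFP-low and RFP-negative cells. Mc were sorted as RFP-high, GFP-negative cells that carried CD117, the surface receptor encoded by Kit, after an antibody labeling of their own. Backskins of several mice were pooled, so an array stands for a pool and not for an animal, and the methods describe the replicates as independent datasets.

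Melanocytes descend from the neural crest and, in a growing follicle, sit in the hair bulb above the dermal papilla (DP), the mesenchymal cluster at its base. They make melanin inside melanosomes, organelles related to lysosomes, and pass these along dendrites into neighboring keratinocytes. The matrix holds the dividing keratinocytes of the bulb, whose progeny form the pigmented hair shaft and the inner root sheath that molds it. The pair is thus a neural crest cell that makes pigment and an epithelial cell whose lineage receives it.

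The values are signals, linear intensities that the authors scaled on each array. Differences are given as Mc minus Mx on the log2(signal + 50) scale, on which folds of dim genes are understated, with the standard error (SE) and the Benjamini-Hochberg adjusted p of limma over all probe-sets. A call needed an adjusted p under 0.05 and at least a 2-fold difference, and a gene was read through its brightest probe-set. Across probe-sets, Pearson's r was 0.982 between the Mc arrays and 0.971 between the Mx arrays, against 0.838 to 0.867 for the 4 pairs of an Mc with an Mx array. Mx replicate 1 had the lowest median signal (49.9, against 60.0 to 68.1 on the other 3 arrays), the most signal concentrated in 100 bright probe-sets (16.6% of its total against 9.86% to 12.2%) and the highest ratio of 3' to 5' actin signal (2.09 against 1.26 to 1.73). Mc replicate 2 came from another chip lot and another fluidics protocol than the other 3 arrays.

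In all, 1349 probe-sets were called higher in Mc (5.96%) and 1142 higher in Mx (5.05%). Of 12393 genes, 825 were higher in Mc (6.66%) and 726 higher in Mx (5.86%), and the median log2 difference over all genes was 0.04. Differences of at least 8-fold were found for 68 genes in Mc and 72 in Mx. Among the 4061 genes that reached a signal of 200 on both arrays of Mc or of Mx, 14.6% were higher in Mc and 13.2% in Mx. These shares are the background against which each gene list is read. Mc were led by neuropeptide, pigment and neural crest genes and Mx by hair keratin, S100 and desmosome genes.

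The 4 markers given with the 2 populations differed between them in the direction of their labels. The marker lists below hold these genes again and were chosen with earlier results of these data known. Both are thus a description and not a test of identity. Tyr, the enzyme of the first step of melanin synthesis, read 5829 and 5921 in Mc and 43.8 and 59.0 in Mx, and Mitf, the master transcription factor of melanocytes, read 2736 and 3208 against 61.3 and 62.1. Krt35, a hair shaft keratin, read 6239 and 5596 in Mx and 129 and 132 in Mc, and S100a3, an S100 protein found in the cuticle cells of hair, read 4024 and 2099 against 105 and 110.3. No array of one population overlapped the other for any of them. All 9 melanocyte markers on the array were called higher in Mc, with a summed signal of 26671 and 28742 on the Mc arrays against 291 and 319.5 on the Mx arrays. Of 9 matrix markers, 7 were higher in Mx (4 with the arrays of one fluidics protocol), with sums of 15433 and 14578 against 559 and 691 in Mc. The other 2 were Foxn1, a factor of hair differentiation, which read 89.3 and 147 in Mx and 51.0 and 61.6 in Mc, and Shh, under 100 on all 4 arrays.

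The genes used for sorting are a description and not a finding. Kit and Krt14 remain in the gene lists below, and Krt14 is among the leading Mx genes. Kit read 2989 and 2651 in Mc and 98.7 and 199 in Mx. Krt14, whose promoter drives the GFP, read 1588 and 1757 in Mx and 57.2 and 45.1 in Mc. The endogenous Lef1 transcript overlapped between RFP-high Mc and RFP-negative Mx, with 138 and 124 in Mc and 106 and 269 in Mx (log2 difference -0.31), and the sign turned to 0.21 without Mx replicate 2.

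Genes of melanin synthesis and melanosome structure were higher in Mc by wide margins. Of 14 on the array, 11 were called higher in Mc and 0 in Mx, all 14 differences lay above 0, and their median log2 difference was 4.52. Tyrp1, an enzyme that acts after Tyr, read 3919 and 4940 in Mc and 22.0 and 76.7 in Mx (log2 difference 5.54, SE 0.59, adjusted p = 0.000567). The difference for Tyr itself was 5.87 (SE 0.56, adjusted p = 0.00037), and folds of 16.8 and 26.6 toward Mc were found with its 2 other probe-sets. Dct, a further enzyme of the pathway, read 6471 and 7260 in Mc and kept 282 and 286 in Mx (log2 difference 4.37, adjusted p = 0.000754). Its level in Mx was the highest among the pigment enzymes there, while Tyr and Tyrp1 stayed under 77 on both Mx arrays. Pmel, the protein of the fibrils on which melanin is laid down, read 6950 and 7318 in Mc and 111 and 245 in Mx (log2 difference 5.04, adjusted p = 0.000814). The brightest signals of the Mc arrays were 7481 and 7318, so Dct and Pmel stood near the top of their range, where saturation was not tested.

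Membrane proteins of the melanosome followed the enzymes. Slc45a2, a transporter of the melanosome membrane, read 6673 and 5379 in Mc against 87.9 and 72.3 in Mx (log2 difference 5.54, adjusted p = 0.000165). Oca2, an anion channel of the melanosome, read 1471 and 3048 against 32.4 and 38.0 (log2 difference 4.67, adjusted p = 0.000741), so that the Mc arrays differed 2-fold between themselves and lay far above Mx. Gpr143, the receptor of ocular albinism, read 2175 and 2482 against 27.3 and 22.2 (4.99), and the cation channel gene Trpm1 2602 and 3611 against 4.9 and 32.5 (5.53). Slc7a11, the cystine transporter that supplies pheomelanin, the yellow pigment, was 4.32 times higher in Mc at 382 and 145 against 7.6 and 28.4. Gpnmb, a glycoprotein related to Pmel, was the exception in level: it read 878 and 1468 in Mx and 2566 and 4183 in Mc (log2 difference 1.49, adjusted p = 0.0309). The threshold was missed when Mx replicate 1 (0.152) or Mc replicate 2 (0.188) was dropped. Atp7a, the copper pump that loads tyrosinase, read 638 and 691 against 315 and 420.1 and was not called (log2 difference 0.79), though another Atp7a probe-set was (1.01).

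**Figure D1:**
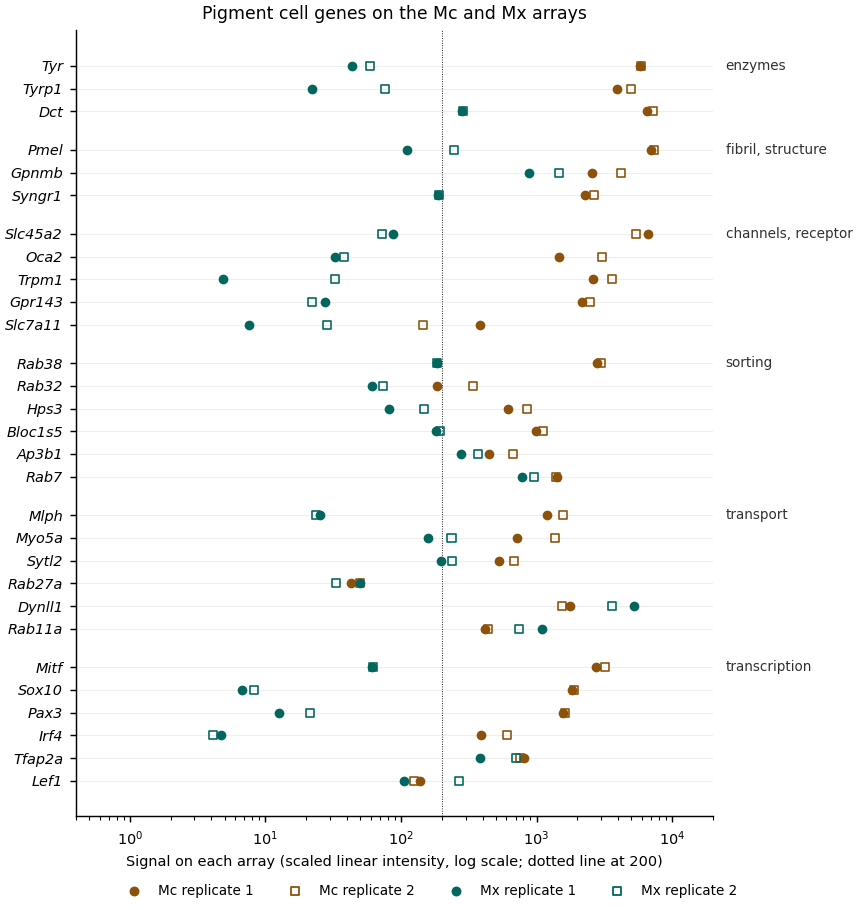
Signal on each array (log scale) of 29 genes of pigment synthesis, melanosome sorting, transport and melanocyte transcription, with circles for replicate 1 and squares for replicate 2 of Mc (brown) and Mx (green). The arrays of Mc and Mx lie far apart for enzymes such as Tyr and close together for sorting genes such as Rab7, and they overlap for Lef1 and for the Rab27a probe-set drawn, while its 2 others were called higher in Mc.

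Mitf is known to bind the letters CATGTG, an E-box, and the longer form TCATGTG, the M-box, in pigment gene promoters. In promoters of the RefSeq annotation (build GRCm38.p6, from 250 bases before to 50 after a start), searched on both strands, the M-box was found in 3.77% of all 32851 promoters and in 3.06% of 9887 array genes that had one. It was found for 33 of 645 genes called higher in Mc (5.12%), for 19 of 559 higher in Mx (3.4%) and for 5 of the 11 genes of melanin synthesis and melanosome structure that had a promoter in the table. The shorter E-box, which every M-box contains, was in 14.2% of all promoters, 13.6% of genes higher in Mc and 10.6% of genes higher in Mx, against 11.4% of array genes and 7 of the 11 pigment genes. Of 25 genes of melanosome biogenesis and sorting with a promoter, 1 held the M-box (4%) and 2 the E-box (8%). Of 39 lysosome genes, 6 held the M-box (15.4%) and 8 the E-box (20.5%). The 27 bases around the match are shown for 5 genes over 16-fold higher in Mc, chosen by name and not by a rule. They are given 5' to 3' on the strand of the gene, with the M-box in capitals. Of these genes, Mc1r is not in the list of melanin synthesis and melanosome structure. The first base of the match lay 22 bases before the start of Tyr (chr7:87493518-87493544, minus strand), 47 before that of Tyrp1 (chr4:80834156-80834182, plus strand), 151 before that of Dct (chr14:118052381-118052407, minus strand), 142 before that of Trpm1 (chr7:64153683-64153709, plus strand) and 52 before that of Mc1r (chr8:123407020-123407046, plus strand).
Tyr: aaaaagttagTCATGTGctttgcagaa
Tyrp1: ggggagggagTCATGTGctgcctagta
Dct: gcacttagggTCATGTGctaacaaaga
Trpm1: caaatcctcaTCATGTGcccaccccaa
Mc1r: cacatgcccaTCATGTGgccaccctca
A match describes these letters in the reference and was not tested as a binding site. Since the motifs were already known from pigment gene promoters, their shares in the pigment list are a description.

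Sorting of cargo into melanosomes is shared with lysosomes and similar organelles, and its genes are known from Hermansky-Pudlak syndrome, in which pigment is lost. Of 30 such genes, 12 were higher in Mc and 0 in Mx, with a median log2 difference of 0.60. Rab38, a small GTPase that directs tyrosinase to melanosomes, read 2799 and 2975 in Mc and 184 and 183 in Mx (log2 difference 3.65, SE 0.31, adjusted p = 0.000222), and its relative Rab32 read 185 and 338 against 61.0 and 73.5 (1.37). Hps3, Bloc1s5 and Hps4, subunits of the sorting complexes, were 4.76, 4.66 and 4.34 times higher in Mc. Others differed little, among them Ap3b1, a subunit of the AP-3 coat, at 444 and 668 in Mc against 276 and 369.8 in Mx (log2 difference 0.69, adjusted p = 0.0546), and Rab7 at 1405 and 1401 against 778 and 957 (0.67), which passed the test of difference (adjusted p = 0.00877) but not the 2-fold limit.

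Lysosome genes that were called lay on the same side. Of 45, 20 were higher in Mc and 0 in Mx, 43 differences lay above 0 and 2 below, and the median was 0.91. Hexa, a subunit of hexosaminidase, which breaks down gangliosides, read 2021 and 2192 in Mc and 41.5 and 27.8 in Mx (log2 difference 4.67, SE 0.26, adjusted p = 5.56e-05), a difference above the median of the pigment list. Npc2, a cholesterol carrier of the lysosome, read 5016 and 5308 against 1166 and 1510 (1.92), and the protease gene Ctsz 2340 and 2348 against 386 and 363 (2.50). The common lysosome genes Lamp1 and Ctsd differed by 0.89 and 0.91 and were not called, at 3043 and 3426 against 1630 and 1813 for Lamp1. Of 17 genes of the vacuolar proton pump, which acidifies lysosomes and early melanosomes, 6 were higher in Mc and 0 in Mx (median 0.71). Atp6v1b2 read 1870 and 2720 against 291 and 405 (2.55, adjusted p = 0.000665) and Atp6v0e2 477 and 348 against 61.0 and 98.1 (1.84). With the arrays normalized by quantiles the lysosome median was 1.23 and that of the pump 0.83.

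Transport genes split. Melanosomes travel on microtubules and are then held at the cell edge by a tether of Rab27a, melanophilin (Mlph) and myosin Va (Myo5a). Mlph read 1203 and 1564 in Mc and 25.1 and 23.5 in Mx (log2 difference 4.26, SE 0.34, adjusted p = 0.000177), and Myo5a 715 and 1361 against 159 and 236 (2.09, adjusted p = 0.00594). For Rab27a, the remaining part of the tether, the probe-sets parted. The one brightest over all 10 arrays read 43.1 and 49.6 in Mc and 49.5 and 33.3 in Mx, which overlap (log2 difference 0.08, SE 0.12, adjusted p = 0.723), while its 2 other probe-sets were called higher in Mc (1.23 and 1.41). Of 16 transport genes, 3 were higher in Mc (Mlph, Myo5a and the Rab27 partner Sytl2) and 3 in Mx. Dynll1, a light chain of the dynein motor, was among the latter at 5242 and 3594 against 1761 and 1541 (-1.37). The other 2, Rab11a and Rab27b, lay at the 2-fold limit with second probe-sets that were not called (-0.34 and -0.10), and each call was lost without some array (Rab11a -0.74 without Mx replicate 1 and -0.98 without Mc replicate 1, Rab27b -0.78 without Mx replicate 2 and -0.96 without Mc replicate 2).

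Genes tied to the uptake of pigment by keratinocytes lay on both sides. Of 15 on the array, 2 were higher in Mx and 2 in Mc, and the median was 0.25. Fgfr2, the receptor that takes up keratinocyte growth factor, read 712 and 954 in Mx and 82.2 and 105 in Mc (log2 difference -2.61, SE 0.23, adjusted p = 0.000256). Itgb4, the hemidesmosome integrin, was the other, at 53.0 and 174 against 9.9 and 11.3, and its call was lost without Mx replicate 2 (adjusted p = 0.0765), Mc replicate 1 (0.107) or Mc replicate 2 (0.119). Dync1i1, an intermediate chain of dynein, was higher in Mc at 274 and 291 against 17.3 and 28.2 (2.20). Rab5b was also called higher in Mc (1.12), though its difference fell under 2-fold without Mc replicate 2 (0.77).

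Transcription factors of the melanocyte lineage that were called were all higher in Mc. Of 19, 10 were higher in Mc and 0 in Mx, with a median of 1.85. Sox10, the neural crest factor that acts upstream of Mitf, read 1835 and 1894 in Mc and 6.7 and 8.3 in Mx (log2 difference 5.06, SE 0.10, adjusted p = 1.9e-06), the lowest adjusted p among the genes named here. Another Sox10 probe-set was 3.93 times higher, and a further one was not called (0.76). Pax3, a paired-box factor that drives Mitf, read 1575 and 1633 against 12.7 and 21.5 (4.63, adjusted p = 2.66e-05), and Ets1 707 and 721 against 10.4 and 10.1 (3.66). Irf4, a factor tied to human hair color, read 389.8 and 607 against 4.7 and 4.1, and Tfeb, a relative of Mitf that controls lysosome genes, 578 and 810 against 21.6 and 82.1. These genes were near the floor in Mx. Tfap2a, which melanocytes and keratinocytes both use, was at 811 and 754 in Mc and 384 and 708 in Mx and was not called (0.54, adjusted p = 0.182).

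Beyond pigment, the gene with the largest difference was Npy, the peptide neurotransmitter neuropeptide Y, at 7371 and 5968 in Mc and 52.4 and 32.6 in Mx (log2 difference 6.18, SE 0.48, adjusted p = 0.000172). Ptgds, a prostaglandin D synthase, read 4878 and 5333 against 52.2 and 86.6 (5.45), and Bace2, a protease that processes Pmel in melanosomes, 1976 and 2707 against 20.5 and 35.2 (4.93). Apod, a lipid carrier common in glia, differed between the Mc arrays, at 3804 and 1420 against 34.4 and 24.9 in Mx, and its log2 difference of 4.90 ran from 4.21 without Mc replicate 1 to 5.6 without Mc replicate 2. The unnamed transcript 4931406C07Rik, read at 3378 and 2335 against 26.0 and 30.8 (5.19, adjusted p = 3.15e-05), was also among the 15 leading genes.

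Of 51 neural crest and neural genes, 18 were higher in Mc and 1 in Mx, with a median of 0.32. Gpm6a, a membrane protein of neurites, read 1406 and 1160 in Mc against 9.4 and 15.3 in Mx (log2 difference 4.41, adjusted p = 3.8e-05), and Fabp7, the fatty acid carrier of radial glia, 1057 and 1072 against 2.9 and 6.1 (4.35, adjusted p = 3e-05). The adhesion molecule gene Ncam1 read 158 and 230 against 3.8 and 4.3 (2.16, with 5 other probe-sets at 0.03 to 0.86 that were not called) and N-cadherin, Cdh2, 87.5 and 127 against 14.6 and 7.3 (1.36). The gene higher in Mx was Stmn1, a regulator of microtubules in dividing cells and neurons, at 6100 and 3988 against 918 and 762 (-2.49, SE 0.20, adjusted p = 0.000183). Of the 51, 25 stayed under 100 on all 4 arrays, among them S100b, a glial calcium-binding protein, at 29.3 and 34.6 in Mc. Of 17 Schwann cell genes, 4 were higher in Mc and 3 in Mx. Those higher in Mc were Fabp7, Foxd3, an early neural crest factor (182 and 164 against 3.6 and 4.1), Pmp22 and Cnp. Pmp22 read 177 and 409 in Mc against 32.8 and 47.0 in Mx (1.85). Cnp read 139.9 and 104 against 16.2 and 4.2 (1.51), with other probe-sets at 0.14 and 0.48 that were not called. Egr2, the myelin regulator, was higher in Mx at 253 and 283 against 22.5 and 31.9 (-2.04), with a second probe-set at -1.23 that was not called. Mpzl2 (-3.29) and Pou3f1 (-1.49) were the others in Mx.

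Receptors on Mc and ligands in Mx were then read side by side, since melanocytes depend on factors from keratinocytes. Of 15 melanocyte receptors 6 were higher in Mc, among them Kit, by which Mc were sorted, and 1 in Mx. Of 21 ligands that act on melanocytes 0 were higher in Mc and 7 in Mx. Kitl, the ligand of Kit needed for melanocyte survival and migration, read 914 and 1056 in Mx and 36.1 and 85.2 in Mc (log2 difference -3.26, SE 0.28, adjusted p = 0.000248), and its 3 other probe-sets were 2.26, 2.64 and 4.22 times higher in Mx. The melanocortin receptor Mc1r, which switches melanin from yellow to black, read 2147 and 1635 in Mc and 1.5 and 1.6 in Mx (5.22, adjusted p = 0.000111). Its ligand precursor Pomc was dim in both, at 74.4 and 105 in Mc and 74.1 and 69.6 in Mx (0.19, adjusted p = 0.341), with a second probe-set at -0.01.

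For other pairs the receptor was higher in Mc and the ligand was dim in both populations. The endothelin receptor Ednrb read 1804 and 2582 in Mc and 32.3 and 27.1 in Mx (log2 difference 4.79, SE 0.30, adjusted p = 8.93e-05), while its ligand genes Edn1 (54.1 and 68.9 in Mx) and Edn3 (19.4 and 14.4) stayed under 100 on all 4 arrays. Met, the receptor of hepatocyte growth factor, read 196 and 287 in Mc and 4.4 and 5.6 in Mx (2.39), and Hgf was under 32 on all 4. Edn1 passed the test of difference toward Mx (-0.82, adjusted p = 0.00438) but not the 2-fold limit. Outside Mc and Mx, Edn3 had a mean of 550.4 in DP, where Edn1 had 19.2 and Hgf 49.2. Edn1 had its highest mean, 153, in the outer root sheath, which is also epithelial, and 63.1 in the dermal fraction. Gpr37, a receptor better known from brain, was 10.6 times higher in Mc at 1309 and 1134 against 53.2 and 88.7. The ligands Ptn, a heparin-binding growth factor (623 and 361 in Mx against 38.8 and 40.7 in Mc), and Bmp4 (366 and 325 against 32.6 and 54.1) were 5.86 and 4.26 times higher in Mx. For both the arrays of the populations did not overlap. Ngfr, the low-affinity neurotrophin receptor of the neural crest, was dim in both, at 5.6 and 7.7 in Mc.

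**Figure D2:**
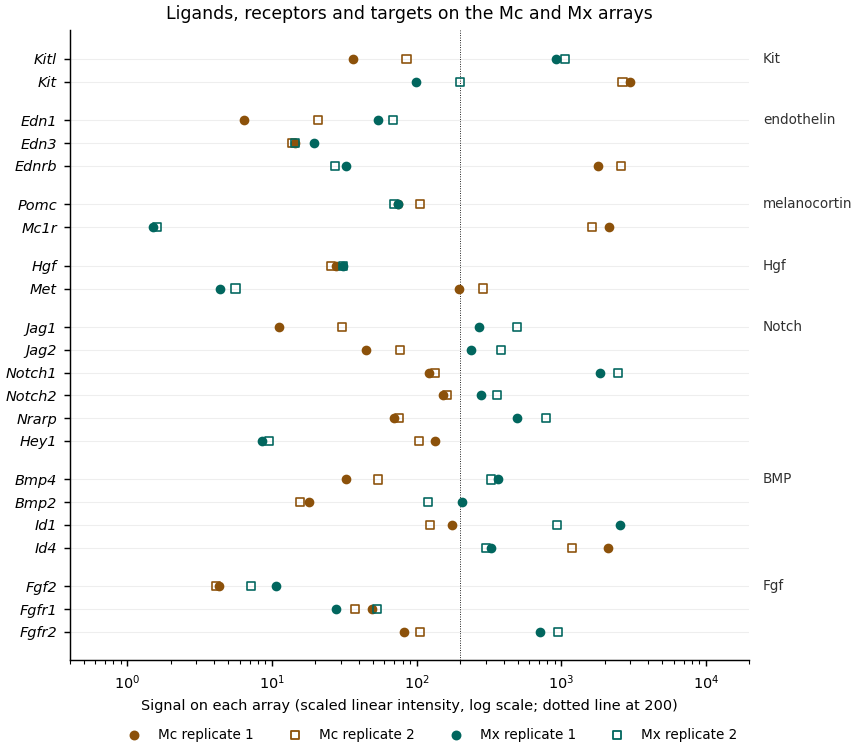
Signal on each array (log scale) of ligand, receptor and target genes, with circles for replicate 1 and squares for replicate 2 of Mc (brown) and Mx (green). Kitl lies at 914 and 1056 in Mx and Kit at 2989 and 2651 in Mc, whereas Edn1, Edn3 and Hgf lie under 100 on all 4 arrays while their receptors Ednrb and Met were higher in Mc.

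Most Notch genes that were called lay on the Mx side. Of 25, 8 were higher in Mx (5 with the arrays of one fluidics protocol) and 1 in Mc. Notch1, the receptor, read 1856 and 2453 in Mx and 121 and 134 in Mc (log2 difference -3.62, SE 0.14, adjusted p = 2.59e-05), and its second probe-set was 2.99 times higher in Mx. Notch2 read 278 and 359 against 153 and 162 and was not called (-0.82), with a second probe-set at 0.07. The ligand genes Jag1 (268 and 498 against 11.2 and 30.4) and Jag2 (237 and 381 against 44.9 and 77.3) were 5.95 and 3.2 times higher in Mx, and the other Jag1 probe-set missed the threshold (-1.07, adjusted p = 0.0547). Among genes that Notch induces, Nrarp was higher in Mx at 492 and 785 against 70.3 and 75.5 (-2.45), as were Hes1 (-1.49) and Heyl (-1.21, lost without Mx replicate 2 at -0.92 or Mc replicate 1 at an adjusted p of 0.0517), while Hey1 was higher in Mc at 135 and 104 against 8.6 and 9.5 (1.52).

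BMP genes gave a mixed picture in which targets of one family parted. Of 38 BMP and TGF-beta pathway genes, 7 were higher in Mx (18.4%, against 5.86% of all genes) and 3 in Mc (7.89%, against 6.66%). The median was -0.09, and the count in Mx was 3 with the arrays of one fluidics protocol. Id1, an inhibitor of differentiation factors that BMP induces, read 2548 and 935 in Mx and 176 and 123 in Mc (log2 difference -3.02, adjusted p = 0.00139), ranging from -2.32 without Mx replicate 1 to -3.72 without Mx replicate 2. Its relative Id4 went the other way, at 2112 and 1179 in Mc against 326 and 302 in Mx (2.17, adjusted p = 0.000937). The TGF-beta receptor Tgfbr2 read 592 and 428 in Mc against 49.3 and 49.8 in Mx (2.48), but its 2 other probe-sets gave 0.20 and were not called. Of 48 Wnt pathway genes 6 were higher in Mx (12.5%) and 4 in Mc (8.33%), and 25 stayed under 100. Wnt5a (310.3 and 436 against 13.7 and 22.3), Wnt10a and Wnt11 were 6.16, 3.48 and 3.26 times higher in Mx. Dkk3, a secreted relative of the Dickkopf inhibitors, was 12.8 times higher in Mc at 998 and 973 against 28.2 and 33.2, and Nkd1, an intracellular inhibitor, 4.65 times. Axin2, a general Wnt target, read 458 and 667 in Mc against 260.5 and 339 in Mx and was not called (0.80), though it passed without Mc replicate 1 (1.04).

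Of 33 FGF and EGF pathway genes 4 were higher in Mx (12.1%, against 5.86% of all genes) and 2 in Mc (6.06%, against 6.66%). The receptor gene Erbb2 was higher in Mx at 204 and 314 against 51.0 and 54.0 (-1.57), and Etv5, an ETS factor induced by FGF signals, was higher in Mc at 895 and 442 against 53.5 and 82.8 (2.54, adjusted p = 0.000594). Erbb3 read 1096 and 710.5 in Mc and 544 and 694 in Mx and was not called (0.49). Of 13 Hedgehog genes 3 were higher in Mx (23.1%) and 1 in Mc (7.69%). The latter was Gas1, a co-receptor (1.03, adjusted p = 0.0371), whose call was lost when any of the 10 arrays but Mx replicate 2 was left out (0.0524 to 0.182). Those in Mx included the targets Gli1 (116 and 156 against 20.7 and 38.6, log2 difference -1.22) and Ptch1 (707 and 877 against 347 and 299.5, -1.17), the latter with a second probe-set at -0.01.

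On the Mx side, the hair shaft keratins were led by Krt35. Of 12 on the array, 7 were called higher in Mx and 0 in Mc, and the median was -1.41. Krt35 differed by -5.04 (SE 0.88, adjusted p = 0.00515) and Krt36 by -3.16, at 448 and 516 in Mx against 15.3 and 4.1 in Mc. Krt31 and Krt33a, keratins of the cortex, read 1749 and 3044 and 1327 and 1901 in Mx against 160.1 and 207 and 174 and 154 in Mc, with no overlap. Their adjusted p-values were 0.0496 and 0.0479, and both calls were lost without any one Mx, Mc or DP array (from 0.078 to 0.165 for Krt31 and from 0.0767 to 0.184 for Krt33a), whereas a fit of the 4 arrays alone gave 0.0115 and 0.00744. The count of 7 hair shaft keratins became 3 without Mc replicate 1 and 4 without Mc replicate 2, Mx replicate 2 or either DP array. Hair keratins are close in sequence, and cross-hybridization between their probe-sets was not tested.

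Other hair shaft proteins gave 12 of 23 higher in Mx (7 with the arrays of one fluidics protocol) and 0 in Mc, with a median of -1.47. S100a3 differed by -4.23 (SE 0.69, adjusted p = 0.00385). Selenbp1, a selenium-binding protein, read 1459 and 2464 in Mx and 18.1 and 7.4 in Mc (log2 difference -4.96, adjusted p = 0.000394), and Lgals7, a galectin of stratified epithelia, 2556 and 3016 against 72.3 and 59.4 (-4.61). The keratin-associated protein gene Krtap8-1 was bright, at 3526 and 3432 in Mx and 302 and 317 in Mc (-3.29, adjusted p = 0.0332), but its call was lost without any one Mx, Mc or DP array (0.0567 to 0.133). Mt4, a metallothionein of stratifying epithelia, read 3255 and 2345 against 72.9 and 58.3 (-4.61, adjusted p = 0.00183). With the arrays of one fluidics protocol alone, the calls of Krt35, S100a3 and Krt71 were lost, at differences of -5.06, -4.25 and -4.11 and adjusted p-values of 0.0695, 0.0617 and 0.0641.

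Genes of the inner root sheath and medulla gave 15 of 21 higher in Mx and 1 in Mc (median -1.81). Krt71, Krt27 and Krt25, keratins of the inner root sheath, read 5403 and 5774, 3944 and 3150, and 6978 and 5564 in Mx. In Mc they read 277 and 303, 164 and 173, and 437 and 363, so that they were 16.6, 16.4 and 14 times higher in Mx. Krt75, a keratin of the companion layer, read 1536 and 1988 against 104 and 86.2 (log2 difference -3.64, adjusted p = 3.78e-05), and trichohyalin, Tchh, 1428 and 1283 against 233 and 258 (-2.25). Ctsl, a cathepsin of lysosomes that the follicle also needs, was the member higher in Mc, at 2082 and 2267 against 699 and 333 (2.05, adjusted p = 0.00146).

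Keratins shared with other epithelia followed. Of 15, 7 were higher in Mx, among them Krt14, whose promoter was used in the sort, and 0 in Mc. Krt5, the partner of K14 in basal cells, read 2111 and 2634 in Mx and 84.1 and 98.8 in Mc (log2 difference -4.09, SE 0.38, adjusted p = 0.000343), and Krt17 2056 and 1576 against 54.1 and 34.0 (-4.31), though a second Krt17 probe-set gave -0.64 and was not called. Of 13 S100 genes on the array 5 were higher in Mx and 1 in Mc. S100a14 (3255 and 1953 against 59.3 and 45.6), S100a16 (4081 and 2982 against 141 and 130.2) and S100a6 (2175 and 1569 against 119 and 102) were 25.2, 19.1 and 11.9 times higher in Mx. S100a1 was higher in Mc, at 1318 and 2206 against 376 and 209 (2.40, adjusted p = 0.00313).

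**Figure D3:**
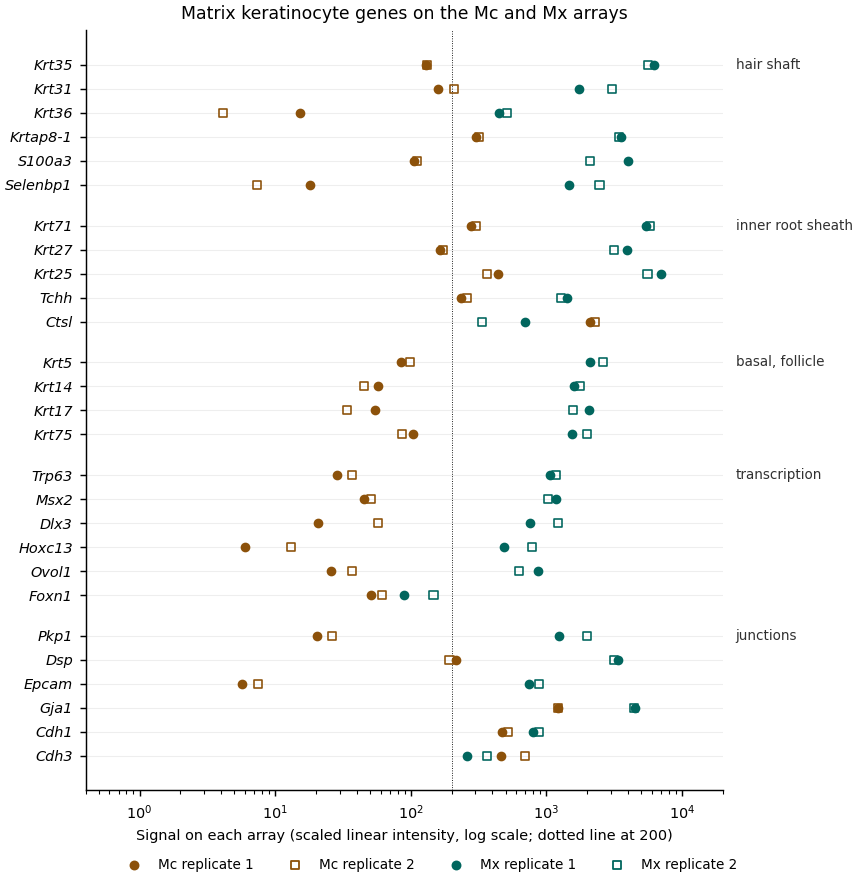
Signal on each array (log scale) of 27 genes of the hair shaft, inner root sheath, basal keratins, matrix transcription and junctions, with circles for replicate 1 and squares for replicate 2 of Mc (brown) and Mx (green). Mx lies above Mc for nearly every gene drawn. Ctsl and Cdh3 lie the other way, of which Ctsl alone was called.

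Of 35 matrix transcription factors, 21 were higher in Mx and 2 in Mc, with a median of -1.57. Trp63, which specifies stratified epithelium, read 1058 and 1181 in Mx and 28.8 and 36.7 in Mc (log2 difference -3.82, SE 0.26, adjusted p = 0.000111), with other probe-sets at -0.91 and -0.55 that were not called. The homeobox genes Msx2 (1184 and 1024 against 45.1 and 50.9), Dlx3 (757 and 1219 against 20.8 and 57.3) and Hoxc13 (486 and 783 against 6.0 and 13), which hair formation requires, were 11.8, 11.6 and 11.2 times higher in Mx. Ovol1, a zinc finger factor of the matrix, read 869 and 631 against 25.8 and 36.7 (-3.29). The members higher in Mc were Irx5, at 185 and 240 against 42.6 and 67.4 (1.32), and Tbx3, at 125 and 149.6 against 26.6 and 28.1 (1.27), a second probe-set of which gave 0.00.

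Junction genes were more often called than the genes of any other list over 30 members. Of 37, 26 were higher in Mx and 0 in Mc, and the median log2 difference was -2.09. Pkp1, a desmosomal plakophilin, read 1245 and 1986 in Mx and 20.2 and 26.2 in Mc (log2 difference -4.47, SE 0.52, adjusted p = 0.000853), Perp, a desmosome membrane protein, 3138 and 3064 against 117 and 146 (-4.12), and desmoplakin, Dsp, 3363 and 3145 against 216 and 193 (-3.70). Epcam read 742 and 885 against 5.7 and 7.5 (-3.93, adjusted p = 2.1e-05), and Esrp1, a splicing factor of epithelial cells, 879 and 1155 against 20.6 and 10.1 (-4.02). Gja1, the gap junction protein connexin 43, was shared, at 4484 and 4436 in Mx and still 1219 and 1226 in Mc (-1.83).

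Cadherins are the proteins by which melanocytes and keratinocytes adhere to each other. N-cadherin was called higher in Mc, as given above for Cdh2, and E- and P-cadherin were not. Cdh1, E-cadherin, read 793 and 879 in Mx and 473 and 525 in Mc (log2 difference -0.69, adjusted p = 0.0421), under the 2-fold limit. Cdh3, P-cadherin, read 464 and 697 in Mc and 258 and 363 in Mx (0.80, adjusted p = 0.0306), and passed the limit without Mx replicate 2 (1.01) or Mc replicate 1 (1.07). Sfn, the epithelial 14-3-3 protein, was a further leading Mx gene, at 1363 and 1384 against 8.4 and 10.2 (-4.59, adjusted p = 0.000434).

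Genes of hemidesmosomes and the epithelial basement membrane gave 6 of 17 higher in Mx and 2 in Mc, and the former became 3 without Mx replicate 2. Col17a1, a collagen of hemidesmosomes, read 126 and 241 in Mx and 2.3 and 2.9 in Mc (log2 difference -2.11), and Itgb1, the common integrin chain, 615 and 602 in Mc against 178 and 213 in Mx (1.43), with 1 other Itgb1 probe-set called (1.45) and 4 that were not (-0.06 to 0.08). Dst, which encodes separate epithelial and neural forms of a cytoskeletal linker, was the 1 gene on the array with probe-sets called in both directions. Its brightest probe-set read 951 and 1302 in Mc and 18.1 and 29.1 in Mx (3.99, SE 0.18, adjusted p = 2.9e-05). Another was lower in Mc, at a mean of 4.35 against 94.7 (-1.40, adjusted p = 0.0111), one more was higher, at 262 against 3.65 (2.53), and the last was not called (-0.62). Which form each probe-set reads was not determined here.

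The genes of cell division that were called were all higher in Mx. Of 86 genes of S phase and mitosis, 24 were higher in Mx and 0 in Mc, 81 differences lay below 0 and the median was -0.79. Mcm7, a subunit of the replicative helicase, read 3264 and 2625 in Mx and 741 and 659 in Mc (log2 difference -1.99, SE 0.14, adjusted p = 0.000132), and Mki67, the proliferation marker, 1396 and 1607 against 460.3 and 424 (-1.65, adjusted p = 0.000335). Hmgb2, a chromatin protein of dividing cells, read 1926 and 979.7 against 309.6 and 192 (-2.27). Division genes were present in Mc as well: Pcna, the replication clamp, read 2180 and 1913 there against 4951 and 3087 in Mx and was not called (-0.92), although it passed without Mx replicate 2 (-1.26). The count of 24 for S phase and mitosis was 37 with a pseudocount of 16. Cell-cycle profiles in the paper put far fewer cells in S phase in Mc, described as quiescent, than in Mx. From array signals alone, fewer dividing cells and less of each transcript per dividing cell cannot be told apart. The same holds for every cell type compared here.

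Of 23 regulators of the cycle, 8 were higher in Mx (5 with the arrays of one fluidics protocol) and 1 in Mc. Those in Mx held both drivers, such as Ccnd1 (965 and 1851 against 467 and 411, log2 difference -1.51) and Mycn (341 and 321 against 26.3 and 31.6, -2.27, with other probe-sets at -0.55 and 0.28 that were not called), and the brake Cdkn1a, which encodes p21, at 1064 and 1461 against 135 and 108 (-2.92, adjusted p = 0.000101). Of 19 survival and apoptosis genes, 2 were higher in Mc (10.5%, against 6.66% of all genes) and 1 in Mx (5.26%, against 5.86%). Bcl2l11, which promotes cell death, was higher in Mc at 646 and 606 against 121 and 142 (1.90, adjusted p = 7.52e-05), with 2 of its 4 other probe-sets called. Mcl1, which promotes survival, was the other in Mc (1.04, and 0.86 without Mx replicate 1, under the limit). None of the other Mcl1 probe-sets was called (0.63 to 0.93). Pmaip1, which promotes death, was higher in Mx (-1.78), a call lost without Mx replicate 1 (adjusted p = 0.076), Mc replicate 1 (0.0678) or Mc replicate 2 (0.0794).

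Energy genes differed by pathway. Of 18 glycolysis genes, 9 were higher in Mc and 0 in Mx, with a median of 1.03. The monocarboxylate carrier gene Slc16a1 read 392 and 267 in Mc and 17.2 and 9.2 in Mx (log2 difference 2.57, adjusted p = 0.000275), Pfkl, a phosphofructokinase, 868 and 700 against 92.6 and 120.4 (2.41), and the glucose carrier gene Slc2a1 232 and 214 against 73.9 and 47.9 (1.31). Of 72 genes of oxidative phosphorylation 0 were higher in Mc and 2 in Mx (2.78%, against 5.86% of all genes). The median was -0.43, or -0.17 with quantile normalization. Their summed signal was 180975 in Mx replicate 1 but 116590 in Mx replicate 2, against 109746 and 103745 in Mc. Slc25a4, an exchanger of mitochondrial ATP, read 3385 and 3133 in Mc against 941 and 737 in Mx (1.90, adjusted p = 0.000306), while citrate synthase, Cs, was at 938 and 916 against 1856 and 2124 (-1.06, and -0.96 without Mx replicate 2, under the limit).

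Melanin synthesis produces peroxide, and genes of redox defence were read for that reason. Of 42, 10 were higher in Mc and 4 in Mx, with a median of 0.07. Gsta4, a glutathione transferase for lipid peroxides, read 208 and 256 in Mc and 2.7 and 2.3 in Mx (log2 difference 2.42, adjusted p = 0.000111), and catalase, Cat, 298 and 402 against 59.7 and 90.3 (1.68, adjusted p = 0.00249). Mgst3, a microsomal glutathione transferase, was higher in Mx at 2589 and 1589 against 245 and 192 (-2.96), though a second probe-set gave -0.27, and Prdx2, a peroxiredoxin, at 2970 and 2001 against 822 and 725 (-1.60), with a second probe-set at -0.56. Members of the same enzyme families thus lay on both sides.

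Immediate early genes, which cells switch on within minutes of a stimulus, were higher in Mx in 14 of 29 cases and in Mc in 1, with a median of -1.09. Ier2 read 3044 and 2436 in Mx and 264 and 201 in Mc (log2 difference -3.30, SE 0.16, adjusted p = 3.8e-05), Egr1 2522 and 3216 against 528 and 523 (-2.33), Junb 1097 and 1047 against 201 and 213 (-2.13), and Atf3 1390 and 602 against 81.3 and 108 (-2.75). Fos itself read 3784 and 2982 against 1672 and 1697 and fell just short of the limit (-0.98, and -1.14 without Mx replicate 2, called). Socs3, a feedback inhibitor of cytokine signals, was the member higher in Mc, at 239 and 369 against 59.4 and 31.6 (1.88), with other probe-sets at 1.21, called, and 0.41, not called. Of 18 heat shock genes 4 were higher in Mx and 0 in Mc, and Hspb1, a small heat shock protein of keratinocytes, led them at 6993 and 4148 against 437 and 404 (-3.53).

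Ribosomal protein genes depended on the Mx array read. Of 42, 7 were higher in Mx and 0 in Mc, and the median was -0.82. Their summed signal was 320141 in Mx replicate 1 and 208883 in Mx replicate 2, against 149143 and 138069 in Mc. The count of ribosomal proteins called was 0 without Mx replicate 1 and 31 without Mx replicate 2, and quantile normalization left 2 calls and a median of -0.15. Both Mx sums lay above both Mc sums, and Mx replicate 1 was the array with the highest actin ratio, whose part in these values was not tested.

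**Figure D4:**
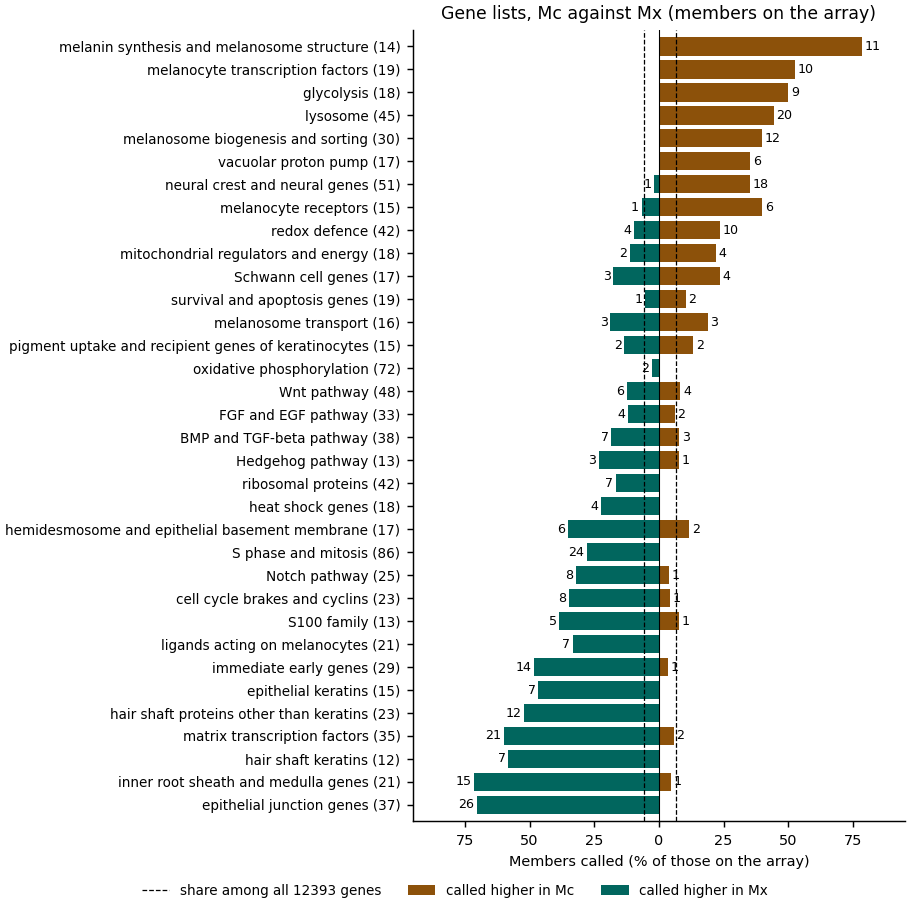
Share of each gene list's members on the array (list size in brackets) that was called higher in Mc (brown, right) or in Mx (green, left), with the number of members called beside each bar; dashed lines mark the shares among all 12393 genes, 6.66% and 5.86%. The pigment list has 11 members called in Mc and 0 in Mx, and the junction list 26 called in Mx and 0 in Mc.

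Markers of other cell types were read on the same arrays. No endothelial, immune, erythroid or muscle marker was called in either direction, and summed immune signals were 461 and 500.3 in Mc and 307 and 316 in Mx. Of 14 fibroblast markers 4 were higher in Mc and 2 in Mx, with sums of 10326 and 6578 in Mc and 7003 and 5927 in Mx, which overlap. Sparc, a collagen-binding protein, read 4216 and 2283 in Mc and 129 and 176 in Mx (log2 difference 3.97), and Vim, the mesenchymal filament protein that melanocytes also use, 1747 and 1469 against 196 and 178 (2.80). Col1a2 read 1131 and 819 in Mc against 319 and 481 in Mx, a call lost without Mx replicate 1 (0.93) or Mc replicate 1 (0.97), and Col3a1 1280 and 921 against 427 and 602, a call lost without the same arrays (adjusted p = 0.133 and 0.14). Among all 14 markers, 12 differences lay above 0 and 2 below. Col1a1 read 640.3 and 199 in Mc against 68.6 and 194 in Mx. It was not called (1.29, adjusted p = 0.134), though a second probe-set was (1.20). Pdgfra, a defining fibroblast receptor, stayed under 15 on all 4 arrays, with a second probe-set at means of 19.5 in Mc and 18.4 in Mx. Dcn, a collagen-binding proteoglycan, lay on the Mx side, unlike Sparc and the collagen genes, at 4725 and 3052 in Mx and 279 and 216 in Mc (-3.70, SE 0.35, adjusted p = 0.000342).

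Among the rest, mast cells carry CD117 too, and of 9 mast cell markers 1 was higher in Mc: the tryptase gene Tpsb2, at 263 and 365 against 5.9 and 4.6 (log2 difference 2.71, adjusted p = 0.000142), with a second probe-set at 0.25 that was not called. The mast cell genes Cpa3 (60.1 and 78.0 in Mc, 50.2 and 78.0 in Mx) and Mcpt4 (4.5 and 5.6 in Mc) were near background. Of 12 outer root sheath markers 4 were higher in Mx, among them Krt15 at 139 and 266 against 5.8 and 5.7. Of 14 DP markers 1 was called in each direction: Sostdc1 in Mx (63.0 and 134 against 2.6 and 1.6) and Wif1 in Mc (645 and 300.4 against 214 and 154), the latter lost when any of the 10 arrays but Mc replicate 2 was left out (adjusted p from 0.0557 to 0.192). The part of these cells in the differences above was not tested.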

How the data were processed

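The authors hybridized RNA of 5 sorted populations, with 2 replicates each, to Affymetrix MOE430A arrays after 1 round of amplification. The deposited intensity of each probe-set is a linear signal that the authors computed with MAS5 and scaled on each array. Array records deposited with the samples gave the chip lot and the fluidics protocol, each coded here as a number or other label. No raw images were used.

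The members, gene lists and tests were chosen with earlier results of these data known. After removal of 64 controls, 22626 probe-sets stayed, of which the platform annotation gave 1 gene to 20380, several to 691 and none to 1555. The 12393 genes so named were each read through the probe-set that was brightest by its mean log2 signal over 10 arrays. log2(signal + 50) was fitted with limma 3.58.1 (R 4.3.3; lmFit and eBayes) over all 10 arrays, with a mean for each of the 5 populations and no block. The contrast was Mc minus Mx, with Benjamini-Hochberg adjustment over all 22626 probe-sets. The residual SD had a median of 0.168 (degrees of freedom: 5 residual, 2.56 prior), so the p-values rest on a spread pooled over populations, and 2 arrays a group limit the precision. No set test was run: lists are given by counts of calls and medians.

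Named genes were Tyr, Mitf, Krt35, S100a3, the 15 genes with the largest difference in each direction (called, with no overlap of arrays and a mean of at least 200 in the higher group), up to 4 called members of each of 45 lists in each direction, a set of ligands and receptors, the genes of the sort, and the brightest markers of other cell types. The following were chosen after their values were seen: Cdh1, Cdh3, Hes1, Heyl, Tfap2a, Erbb3, Gja1, Mcpt4, Pcna, Pdgfra, Col1a1, Lamp1, Rab27a, Axin2, S100b, Atp7a, Ap3b1, Rab7, Ctsd, Fos, Dct, Oca2, Gpnmb, Irf4, Tfeb, Mki67, Junb, Jag2, Cdh2, Ncam1, Shh, Dsp, Ovol1, Tchh, Krt75, Ccnd1, Npc2, Slc2a1 and Rab32. Python 3.11.15 with pandas 2.3.3, numpy 2.4.6 and matplotlib 3.10.9 read the table, searched RefSeq promoters and drew the plots. Tested on simulated data for Mc minus Mx with 22626 probe-sets, 12 of 50 changed 2-fold, 44 of 50 changed 3-fold and 45 of 50 changed 4-fold were called, and 0 of 22426 unchanged ones. The changed probe-sets were drawn from those with a signal above about 200 in Mx, and the spreads were shuffled across probe-sets. These rates therefore do not cover dim genes or a link of spread to signal. Alternatives were other pseudocounts, signal filters, limits, normalizations, fits and blocks, other probe-sets and each array left out in turn. The arrays of one fluidics protocol were added after the data were seen.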

Additional observations from a re-analysis of the deposited data

How the results depend on the processing

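The counts of probe-sets higher in Mc (1349) and in Mx (1142) moved by over 1.5 times with the pseudocount, the limits of the call and the fluidics protocol. They were 2529 and 1844 with a pseudocount of 1, 2456 and 2191 at a fold limit of 1.5, 574 and 446 at 3, and 2994 and 2569 by adjusted p alone. The count in Mc was 2051 with a pseudocount of 16, and that in Mx 727 with the arrays of one fluidics protocol. Leaving out an array gave 1146 to 1601 in Mc and 901 to 1300 in Mx, quantile normalization 1272 and 1111, the chip lot as a factor 1308 and 1121, and a fit of Mc and Mx alone 1139 and 894. Within one chip lot 1357 and 1107 reached 2-fold, with 0 calls at 1 residual degree of freedom. Replicate numbers were not taken as pairs: no source says that equal numbers share a preparation, and deviations of equally numbered arrays correlated from -0.0471 to 0.271 over 10 pairs of populations (0.123 for Mx and Mc). With the replicate block the counts were 1352 and 1155.

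Of 5083 recomputed values of 228 genes that reached 100 on an array, 246 lost their call, 33 gained one and 10 changed sign. The next brightest probe-set of a gene turned Dst (-1.4), Mycn (0.28), Mgst1 (0.01) and, among genes not called, Pomc (-0.01), Notch2 (0.07), Egfl7 (-0.19) and Itga6 (-0.01). On leaving out arrays, Lef1 ran from -0.82 to 0.21 (above 0 without Mx replicate 2) and Itga6 from -0.08 to 0.38 (-0.06 without Mx replicate 1, -0.08 without Mc replicate 1). The causes were not tested. Of 594 list counts 25 moved by over 1.5 times, among them, with a filter at 200, the Mx calls for Wnt (from 6 to 3) and for hemidesmosomes (from 6 to 2). Signals near the floor or the top of an array limit the folds.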

Other observations

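Transcripts of leading Mc genes were also found on the arrays of the dermal populations of the same series, and hardly on those of the outer root sheath (ORS). Npy, at a mean signal of 6669 in Mc, read 2548 in DP, 630.2 in the dermal fraction (DF) and 42.0 in ORS, and Ptgds, at 5105 in Mc, read 3391, 1233 and 120.3. Among pigment genes, Dct, at 6866 in Mc, read 6745 in DP and 3316 in DF, and Pmel, at 7134 in Mc, read 6072 and 2772. Tyrp1, at 4430 in Mc, read 3348 in DP and 1076 in DF, and Tyr, at 5875 in Mc, read 2064 and 613. Mc1r, at 1891 in Mc, read 202 in DP and 39.9 in DF. DP was sorted, like Mc, as RFP-high cells, after removal of CD117-positive cells, and Kit read 499 in DP against 2820 in Mc. Ednrb was ordered otherwise, at 2193 in Mc, 1723 in DF and 624 in DP.

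The genes with the largest differences toward Mx parted in ORS, the other sorted epithelial population. Krt5, Krt14, Krt17, Fxyd3 and Lgals7 had higher means in ORS than in Mx, at 6642, 5716, 3411, 4592 and 2849 against 2372, 1672, 1816, 2212 and 2786. The other 10 of the 15 had higher means in Mx, among them Krt35 at 5918 against 559.6, Selenbp1 at 1962 against 67.5, Mt4 at 2800 against 212 and S100a3 at 3062 against 241. Krt35 also read 1368 in DF and 556 in DP, against 131 in Mc. Dcn read 3888 in Mx, above its means of 1620 in DF and 582 in DP. No test compared these means, and the ORS, DF and DP arrays entered the report through the pooled spread and the choice of probe-set.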
